A study of Mus musculus with 47 samples.

Results

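The genes described here make, move and break down the transmitter GABA in single interneurons that express neuropeptide Y (NPY). The 6 genes, *Gad1*, *Gad2*, *Slc32a1*, *Slc6a11*, *Abat* and *Aldh5a1*, were taken by name from the 22800 gene symbols of the read count table by their place in the pathway, and no threshold on a value was used. All 6 are in the table. GABA is made from glutamate by glutamate decarboxylase, of which mammals have 2 genes, *Gad1* and *Gad2*. The vesicular transporter encoded by *Slc32a1* loads GABA into synaptic vesicles, and plasma membrane transporters such as that encoded by *Slc6a11*, best known from astrocytes, take it up after release. Inside the cell GABA transaminase, encoded by *Abat*, turns GABA into succinic semialdehyde, and the dehydrogenase encoded by *Aldh5a1* oxidises this to succinate, which enters the citric acid cycle in the mitochondrion.

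Each library held the cytosol of 1 cell, drawn into the patch pipette in a brain slice from mice of 3 to 8 weeks, so every value below is a value of 1 cell. The groups were NPY-positive neurons of the superficial auditory cortex (AC, 20 libraries), of CA3 (21), of CA1 (3) and of the dentate gyrus (DG, 2), and 1 NPY-negative cell of CA3. All came from mice of both sexes that carried a green fluorescent reporter in NPY-expressing cells, named NPY-EGFP in the design text and NPY-hrGFP in the paper, and cortical slices were coronal whereas hippocampal slices were horizontal. The labels do not say which of the 8 mice a cell came from, so each region counts as 1 sample, no test between regions was made, and SDs describe the spread of cells only.

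The main set held 26 cells: 10 of AC, 13 of CA3 and 3 of CA1. The AC and CA3 cells are those found in the heat maps of the paper by an earlier analysis, which did not find all CA3 cells drawn there, and these maps include *Gad1* and *Gad2*, so reads of both genes in each main cell of AC and CA3 are not an independent result. The main libraries held 601781 to 7949918 counted reads and 3163 to 8149 genes with a read. The AC libraries N4, of the main set, and N4X had a correlation of 0.995 of their log2 counts, against 0.724 for the next pair, and were counted as 1 cell. Of the other 20 libraries, 10 had over 10000 CPM (reads on a gene scaled to a library of 1000000) summed over lists of astrocyte or oligodendrocyte markers, against at most 3030 CPM in a main cell for the astrocyte list and 1043 CPM for the oligodendrocyte list. None of these 10 libraries had a read on *Npy*, against the label of 9 of them as NPY-positive.

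**Figure D1:**
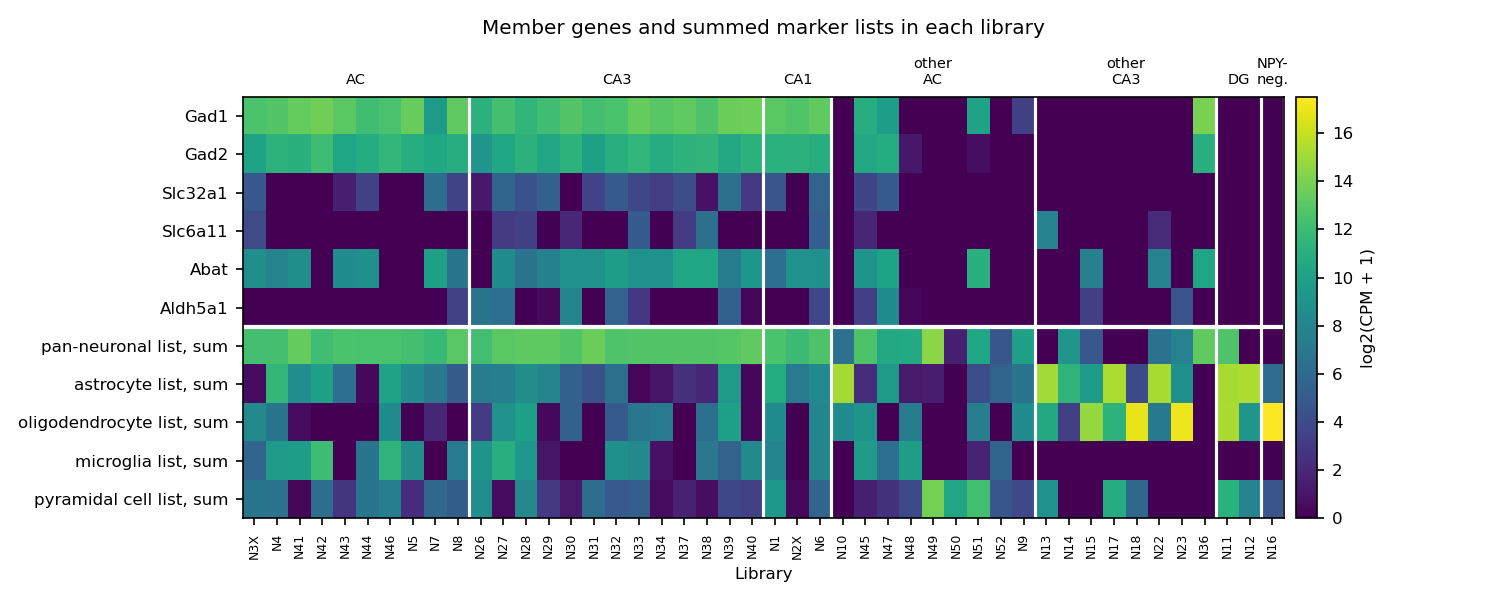
Rows are the 6 genes and the summed marker lists, columns are 46 libraries by group (N4X not drawn), and colour gives log2(CPM + 1). *Gad1* and *Gad2* were read in each of the 26 main cells, and the libraries over 10000 CPM on a glial list had no read on *Gad1*, *Gad2* or *Slc32a1*.

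*Gad1* was the most abundant of the 6 genes per length and differed little between the regions. It lies on chromosome 2 of GRCm38 from 70553072 to 70602014 on the plus strand. In AC it took 740 CPM in the lowest cell (N7), 7873 in the median and 13468 in the highest (N42), and in CA3 2461 (N26), 6274 and 13031 (N40). The 3 CA1 cells had 8254 (N1), 6936 (N2X) and 9501 CPM (N6). The ranges overlapped, and N7 stood apart below every other main cell. On the scale of level used for all differences here, log2(normalized count + 1), *Gad1* had 14.43 ± 1.34 (SD, n = 10 cells) in AC, 14.38 ± 0.74 (n = 13) in CA3 and 14.74 ± 0.18 (n = 3) in CA1. The difference of AC minus CA3 was 0.05, and leaving out 1 cell at a time moved it between -0.11 (without N42) and 0.43 (without N7), so its sign rests on single cells. Per kilobase of exon, *Gad1* ranked at a median of 10 among 21873 genes in AC cells, of 18 in CA3 cells and of 7 in CA1 cells, with a worst rank of 601 in N7.

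*Gad2*, which encodes the decarboxylase isoform best known from nerve terminals, lies elsewhere on chromosome 2, from 22622205 to 22693874 on the plus strand. It took 1134 (N3X), 1943 and 4281 CPM (N42) in the lowest, median and highest AC cell, and 571 (N26), 2061 and 3110 CPM (N33) in CA3. The CA1 cells had 2318 (N1), 2435 (N2X) and 1888 CPM (N6). Again the ranges overlapped. The cell with the least *Gad1*, N7, had 1403 CPM of *Gad2*, below the AC median but above N3X and N43 (1234 CPM). The levels were 12.76 ± 0.77 (n = 10) in AC, 12.54 ± 0.67 (n = 13) in CA3 and 12.85 ± 0.28 (n = 3) in CA1. The AC mean was higher than the CA3 mean by 0.22, which is within the SD of either group, and this moved between 0.05 (without N42) and 0.33 (without N3X) with 1 cell left out. It turned to -0.20 with all labelled cells and to -0.27 without main cells of 1000 CPM or more on the summed glial and microglial lists, so it has no firm direction. Per kilobase *Gad2* had median ranks of 100, 121 and 53 among 21873 genes in AC, CA3 and CA1 cells.

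**Figure D2:**
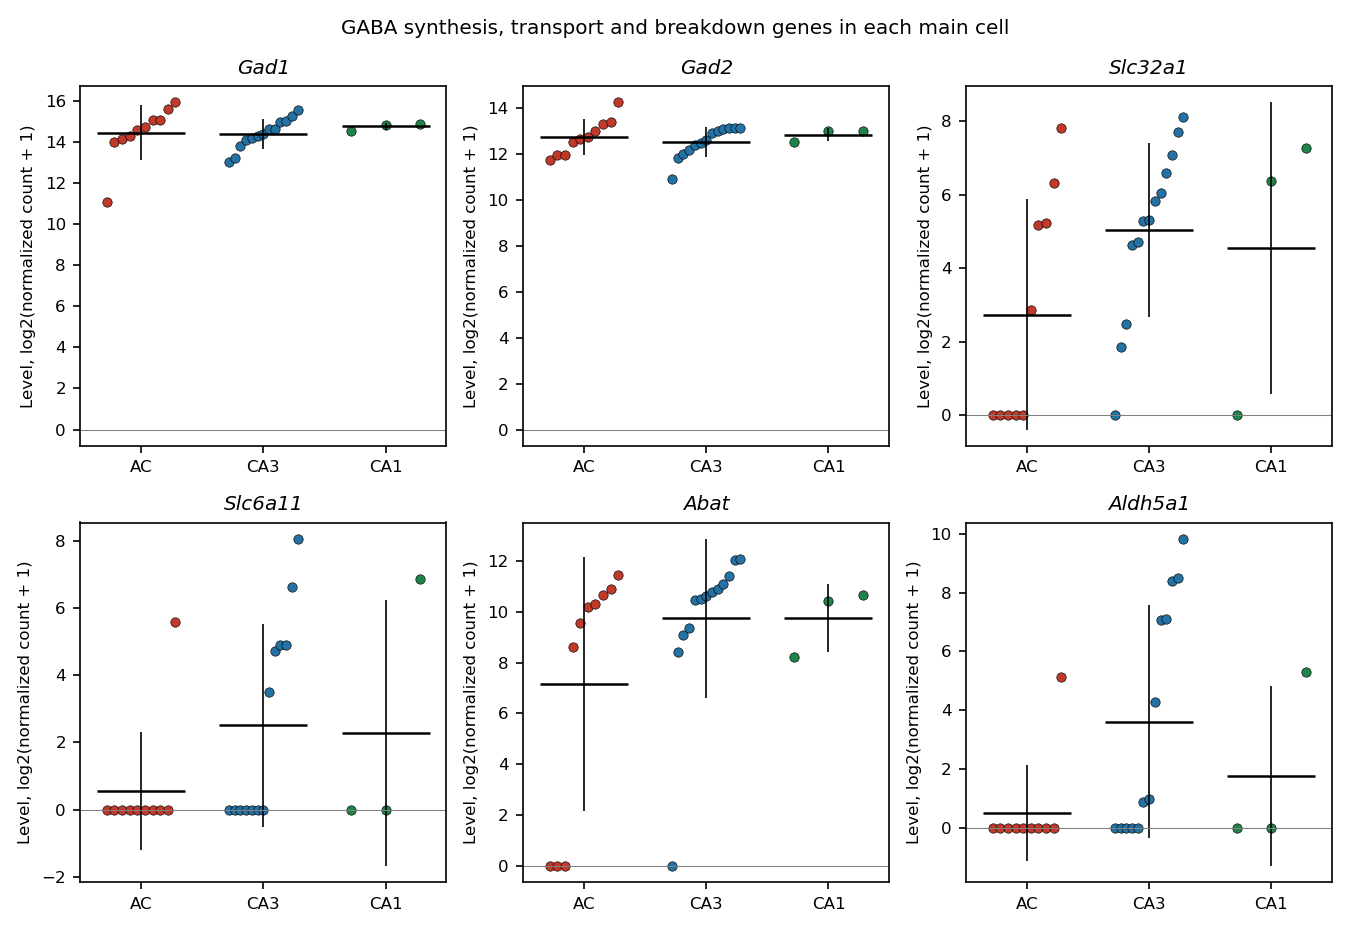
Each point is 1 main cell (10 of AC, 13 of CA3, 3 of CA1), the vertical axis is the level as log2(normalized count + 1) on its own range in each panel, horizontal bars are means and vertical bars SDs over cells. *Gad1* and *Gad2* lay far above 0 in every cell, while *Slc32a1*, *Slc6a11*, *Abat* and *Aldh5a1* each had cells at 0.

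The pair of decarboxylase genes differ enough in sequence for reads to be told apart. Over 1468 aligned coding bases of the first GENCODE transcript of each gene, 69.1% were identical, and the longest identical run had 17 bases. The run is shown in capitals with 20 bases on each side, since it lies where both genes encode the lysine that holds the cofactor pyridoxal phosphate. The *Gad1* stretch is in exon 13 at chr2:70593434-70593490 and the *Gad2* stretch in exon 12 at chr2:22673946-22674002, both in coding sequence on the plus strand of GRCm38.
Gad1: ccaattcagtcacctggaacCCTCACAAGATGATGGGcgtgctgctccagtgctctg
Gad2: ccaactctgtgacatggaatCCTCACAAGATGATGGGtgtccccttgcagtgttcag

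The number of *Gad1* reads per *Gad2* read varied more between cells than between regions. In AC it was 0.528 in the lowest cell (N7), 3.99 in the median and 6.76 in the highest (N43). In CA3 it was 1.22 (N28), 3.82 and 8.37 (N39), and in CA1 3.56 (N1), 2.85 (N2X) and 5.03 (N6). N7 was the 1 main cell with more reads on *Gad2*, 3162 against 1668 on *Gad1*, a *Gad1* share of 34.5% (exact Clopper-Pearson 95% interval 33.2 to 35.9). The next lowest cell, N28, had a share of 55.0% (54.1 to 55.9), and the highest, N39, of 89.3% (89.1 to 89.5). Intervals of reads, here and below, cover counting error only, and reads copied by PCR are not independent molecules. The intervals are narrow beside the distance between cells. The log2 ratio was 1.67 ± 1.09 (n = 10) in AC, 1.85 ± 0.66 (n = 13) in CA3 and 1.89 ± 0.41 (n = 3) in CA1. AC minus CA3 was -0.17, and it turned to 0.12 when N7 was left out and fell to -0.30 without N28.

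**Figure D3:**
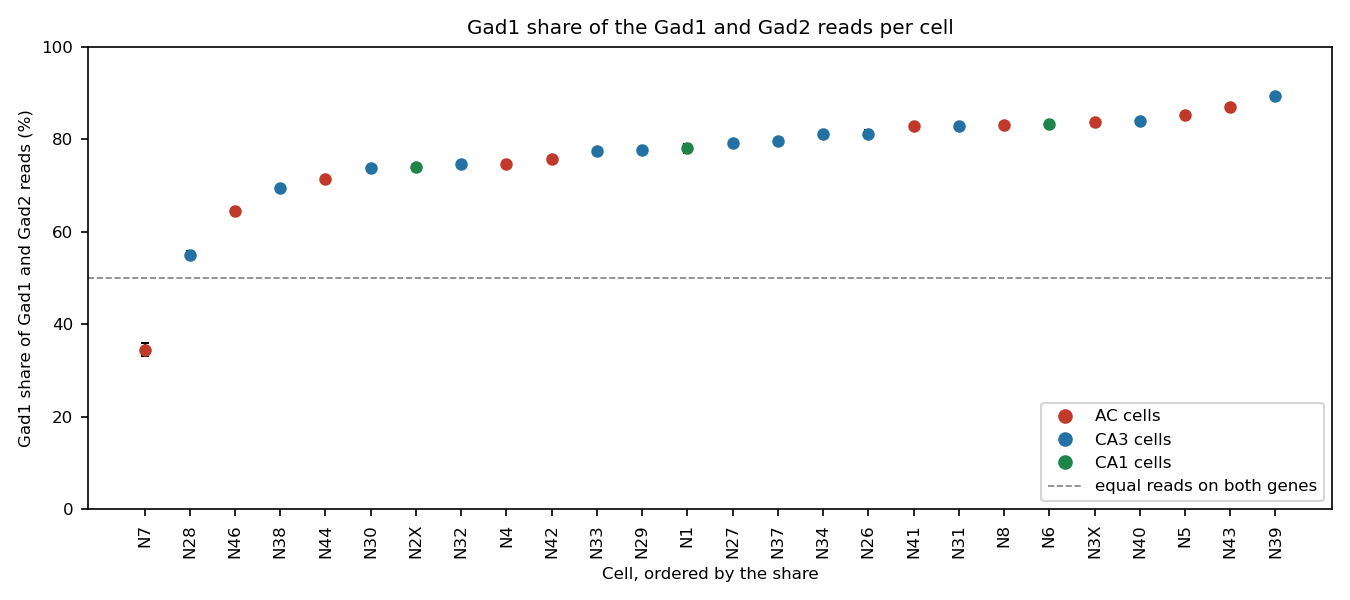
Points are the 26 main cells in order of the *Gad1* share of the reads on both genes (percent), coloured by region, with exact 95% intervals that are mostly smaller than the points. The AC, CA3 and CA1 cells are mixed along the order, from N7 at 34.5% to N39 at 89.3%, and N7 alone lies below the dashed line at equal reads.

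Divided by the length of all exons, 7639 bases for *Gad1* and 5876 for *Gad2*, the ratio per kilobase had a median of 2.84 over the 26 cells, a range of 0.406 to 6.44, and 2 cells below 1, N7 and N28. With the lengths of those first transcripts, 3355 bases for *Gad1* and 5744 for *Gad2*, the median was 6.32, the range 0.903 to 14.3, and 1 cell lay below 1. The size of the ratio thus depends on the lengths used, while *Gad1* stood above *Gad2* in at least 24 of 26 cells with either. The levels of the 2 genes had a Spearman correlation of 0.52 over the 26 cells, 0.58 over the AC cells and 0.59 over the CA3 cells, a description in which both genes share the size factor of the cell.

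*Gad1* has a processed pseudogene, *Gad1-ps*, in the table, whose reads could be split from those of *Gad1* only where the copies differ. How reads that match both places were counted is not given in the sources used here. *Gad1-ps* lies on chromosome 10 from 99444044 to 99445819, and 1773 of its bases aligned to the first *Gad1* transcript with 88 differences, or 95.04% identity, and a longest identical run of 107 bases. The 100 bases that differ most are shown with the 11 differing bases in capitals, since reads from there can be assigned to 1 copy. They lie in exon 5 of *Gad1*, in coding sequence at chr2:70574080-70574179, and in *Gad1-ps* at chr10:99444349-99444448.
Gad1: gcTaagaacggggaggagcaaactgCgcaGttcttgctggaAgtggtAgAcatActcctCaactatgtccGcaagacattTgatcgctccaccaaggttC
Gad1-ps: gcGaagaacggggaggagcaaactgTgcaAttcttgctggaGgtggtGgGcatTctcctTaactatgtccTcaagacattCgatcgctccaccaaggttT

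Reads on *Gad1-ps* were few and went with those on *Gad1*. They were present in 25 of the 26 main cells, all but N7, with a median of 9.5 and at most 44 reads (N39). Summed over the main cells there were 391, which is 0.0548% of the *Gad1* reads, and in no cell were they more than 0.0869%. None of the 15 libraries without a *Gad1* read had a read on *Gad1-ps*. Its level was the most like that of *Gad1* among 4987 genes read in 13 or more main cells, with a Spearman correlation of 0.87. Adding its reads to *Gad1* left the AC minus CA3 difference of the log2 ratio at -0.17.

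**Figure D4:**
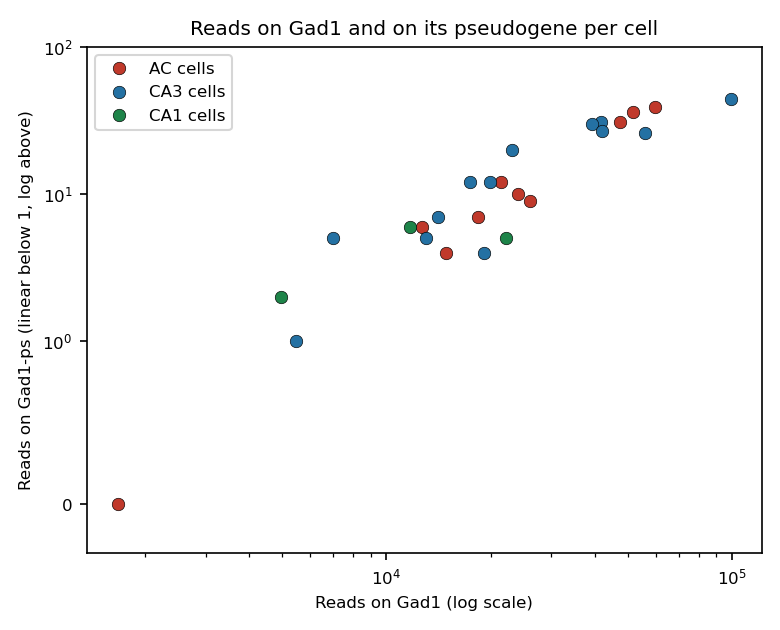
Each point is 1 of the 26 main cells, with reads on *Gad1* on the horizontal axis (log scale) and reads on *Gad1-ps* on the vertical axis (linear below 1, log above), coloured by region. Reads on *Gad1-ps* go up with reads on *Gad1*, from 0 in N7 to 44 in N39, in all 3 regions.

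*Slc32a1*, the vesicular transporter, was read at a far lower level and in fewer cells. It lies on chromosome 2 from 158610767 to 158615748 on the plus strand, where its exons overlap the antisense gene Gm14205, which was not analysed here. Whether the counting used the strand is not given in the sources used here, and without strand reads of the pair cannot be told apart. In AC it took 77.7 CPM in N7, 26.1 in N3X, 10.4 in N8, 9.71 in N44 and 1.92 in N43, and the other 5 cells had no read. In CA3 the lowest cell (N30) had no read, the median was 12.9 and the highest 88.2 CPM (N39), and CA1 had 23.3 (N1), 0 (N2X) and 48.8 CPM (N6). The N7 cell, lowest in *Gad1*, was thus the highest of the AC cells in *Slc32a1*.

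Reads on *Slc32a1* were found in 5 of 10 AC cells (exact Clopper-Pearson 95% interval of the share 18.7 to 81.3%), in 12 of 13 CA3 cells (92.3%, 64.0 to 99.8) and in 2 of 3 CA1 cells (66.7%, 9.43 to 99.2). Intervals of shares of cells treat the cells as independent draws, cover no spread between mice and are no comparison of regions. In the AC cells without a read, the limit that 3 reads set was 0.686 to 1.75 CPM, below the CA3 median. The summed reads gave 11.3 CPM in AC (exact Poisson 95% interval 10.2 to 12.5), 27.5 in CA3 (26.04 to 28.998) and 14.7 in CA1 (11.5 to 18.5), but N39 alone held 52.2% of the CA3 reads and N7 45.6% of those in AC. The level was 2.74 ± 3.13 (n = 10) in AC and 5.05 ± 2.37 (n = 13) in CA3, a difference of -2.31 with overlapping ranges, which stayed between -2.87 and -2.01 without any 1 cell. It was -0.98 with all labelled cells, -1.29 with summed CPM and -3.87 with medians over cells.

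Within AC, the summed astrocyte and microglia markers were higher in the cells without a read on *Slc32a1*. The cells without a read were N4, N41, N42, N46 and N5, with summed astrocyte markers of 3030, 375, 1020, 1126 and 353 CPM and summed microglia markers of 669, 911, 4365, 2740 and 409 CPM. In N7, N3X, N8, N44 and N43 the astrocyte list took 131, 0.493, 33.04, 0.303 and 81.7 CPM, and the microglia list at most 157 CPM (N8). In CA3 the cell with the most *Slc32a1*, N39, had 692 CPM on the astrocyte list and 1043 on the oligodendrocyte list. Over all main cells of AC, 8 of 10 astrocyte markers and 6 of 7 microglia markers had a read, and *Aqp4*, *Gjb6* and *Tmem119* had none. When main cells with 1000 CPM or more on these lists together were left out, a choice made with the values known, reads on *Slc32a1* remained in 5 of 6 cells of AC and 9 of 10 of CA3, and the AC minus CA3 difference turned to 0.19. The AC cells left out were N4, N41, N42 and N46, all without a read on *Slc32a1*. The CA3 cells left out were N27, N28 and N39, all with reads on it. The turn thus follows from which cells were left out, and the part of the other cells in the difference was not tested.

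*Slc6a11*, the uptake transporter, had no read in most main cells. It lies on chromosome 6 from 114131241 to 114249952 on the plus strand. In AC 1 of 10 cells had reads (exact interval of the share 0.253 to 44.5%), namely N3X with 63 reads or 15.5 CPM. In CA3 6 of 13 cells had reads (46.2%, 19.2 to 74.9), at 82.3 CPM in N38, 32.7 in N33, 8.85 in N28, 7.50 in N37, 7.20 in N27 and 2.86 in N30, and in CA1 1 of 3 cells (N6) had 36.6 CPM. N38 held 59.4% of the CA3 reads. The level was 0.56 ± 1.77 (n = 10) in AC, 2.51 ± 3.01 (n = 13) in CA3 and 2.28 ± 3.96 (n = 3) in CA1. AC minus CA3 was -1.95, and -0.90 with a pseudocount of 10. It was 0 with medians over cells and -1.35 without main cells of 1000 CPM or more on the glial and microglial lists. Since the product is best known from astrocytes, the astrocyte list is given beside these cells: it took 2.72 CPM in N38, 0.258 in N33, 4.69 in N37 and 0.493 in N3X, and 41.5 in N30, 191 in N27, 310 in N6 and 407 in N28. The main cells with the highest astrocyte list in CPM, N4 and N1, had no read on *Slc6a11*.

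*Abat*, the transaminase at the start of GABA breakdown, was read in 22 of 26 main cells. It lies on chromosome 16 from 8513429 to 8621568 on the plus strand. In AC the values were 968 CPM in N7, 447 in N44, 422 in N41, 418 in N3X, 358 in N43, 228 in N4 and 111 in N8, and N42, N46 and N5 had no read. In CA3 N26 had no read, the median was 494 and the highest 1344 CPM (N38), and CA1 had 84.7 (N1), 467 (N2X) and 434 CPM (N6). *Abat* was thus either at 0 or well above the limit of detection: the lowest number of reads in a cell with any was 51 (N1).

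Reads on *Abat* were present in 7 of 10 AC cells (70.0%, exact interval 34.8 to 93.3), 12 of 13 CA3 cells (92.3%, 64.0 to 99.8) and 3 of 3 CA1 cells (29.2 to 100%). The level was 7.16 ± 5.002 (n = 10) in AC, 9.74 ± 3.12 (n = 13) in CA3 and 9.76 ± 1.33 (n = 3) in CA1. AC minus CA3 was -2.58, between -3.39 and -1.78 without any 1 cell, with overlapping ranges. Without main cells of 1000 CPM or more on the glial and microglial lists it was -1.34. It was -0.75 with medians over cells in place of means and -0.97 with summed CPM. Of the 3 AC cells at 0, N42 and N46 had the highest microglia sums of AC. N5, also at 0, had 409 CPM on that list, below N41 with 911 CPM, which had *Abat* reads. In CA3, N27 had 2161 CPM on the microglia list and 353 CPM of *Abat*. The part of other cells was not tested.

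*Aldh5a1*, the dehydrogenase that completes the breakdown, had the fewest cells with a read in AC together with *Slc6a11*. It lies on chromosome 13 from 24907579 to 24937661 on the minus strand, where its exons overlap 4932702P03Rik and 9330162012Rik on the other strand, which were not analysed here, so the same limit holds. In AC only N8 had reads among the main cells, 60 or 9.58 CPM. In CA3 the cells had 253 CPM (N30), 105 (N26), 83.2 (N27), 45.4 (N32), 42.4 (N39) and 6.18 (N33), N29 and N40 had 1 read each, and 5 cells had none. In CA1 N6 had 12.2 CPM. N26, the CA3 cell without *Abat*, was thus second highest in *Aldh5a1*.

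Cells with a read on *Aldh5a1* were 1 of 10 in AC (exact interval of the share 0.253 to 44.5%), 8 of 13 in CA3 (61.5%, 31.6 to 86.1) and 1 of 3 in CA1 (33.3%, 0.840 to 90.6). Summed reads gave 1.76 CPM in AC (exact Poisson interval 1.34 to 2.27), 33.9 in CA3 (32.2 to 35.5) and 2.98 in CA1 (1.67 to 4.91), and N30 held 42.8% of the CA3 reads. The level was 0.51 ± 1.62 (n = 10) in AC, 3.62 ± 3.97 (n = 13) in CA3 and 1.76 ± 3.06 (n = 3) in CA1. AC minus CA3 was -3.11, between -3.62 and -2.59 without any 1 cell, and the ranges overlapped. It was -1.003 with medians over cells, -1.59 with all labelled cells, -1.81 with a pseudocount of 10, -2.30 without the cells high in glial and microglial markers and -4.26 with summed CPM. Of the AC libraries outside the main set, N47 had 2161 reads on *Aldh5a1*, or 347 CPM, more than any main cell. N47 had 1719 genes with a read, fewer than any main cell.

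The genes of the pathway were not read together in most cells. Both decarboxylase genes were read in 26 of 26 main cells, both and *Slc32a1* in 19, and both and *Abat* in 22. *Abat* and *Aldh5a1*, which act one after the other, were read together in 9 cells (1 of 10 in AC, 7 of 13 in CA3, 1 of 3 in CA1), *Abat* alone in 13 and *Aldh5a1* alone in 1. All 6 genes were read in N27 and N33 of CA3 and N6 of CA1. N42, N46 and N5 of AC had reads on no gene of the 6 but *Gad1* and *Gad2*. Counting a gene as present from 10 reads lowered the cells with *Slc32a1* from 12 to 10 in CA3 and from 5 to 4 in AC, those with *Slc6a11* from 6 to 5 in CA3 and those with *Aldh5a1* from 8 to 6 in CA3. No other count of cells for a single gene changed. Thinning every cell to 601000 reads lowered *Slc32a1* to 10 and *Aldh5a1* to 6 cells in CA3, and no other count for a single gene. Counts of genes read together were not recomputed in either case. That of *Abat* with *Aldh5a1* would be lower in both, since N29 and N40 had 1 *Aldh5a1* read each beside *Abat*.

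Set beside all genes, the lower values of 4 of the 6 genes in AC than in CA3 were of a kind that many genes had. Since no test was possible, the limit used was a mean level 1 or more apart on the log2 scale. Over the 6597 genes read in 10 or more main cells, 47.3% were lower in AC than in CA3 by this limit and 15.9% higher, and the median difference was -0.87. Of the 6 genes, 4 were lower and 0 higher. Of the 5 that passed the filter on reads (all but *Slc6a11*), 3 were lower, and their median was -2.31. Relative to the median of all genes, AC minus CA3 was 0.92 for *Gad1*, 1.09 for *Gad2*, -1.44 for *Slc32a1*, -1.09 for *Slc6a11*, -1.71 for *Abat* and -2.24 for *Aldh5a1*. These relative values depended on the setting. For *Gad1* and *Gad2* they were 0.09 and 0.22 with summed CPM, and 0.38 and 0.55 without the filter. With medians over cells they were 0.84 for *Slc6a11*, 0.09 for *Abat* and -0.16 for *Aldh5a1*, and with all labelled cells 0.21 for *Slc32a1*, so for *Slc32a1*, *Slc6a11* and *Abat* the direction relative to all genes turned.

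The means of CA1 and CA3 differed by less than 1 for all of the 6 genes but *Aldh5a1*. CA1 minus CA3 was 0.36 for *Gad1*, 0.32 for *Gad2*, -0.50 for *Slc32a1*, -0.23 for *Slc6a11*, 0.02 for *Abat* and -1.85 for *Aldh5a1*, so 1 of 6 was lower and 0 higher by the limit, where 40.2% of all genes tested were lower and 29.6% higher. CA1 minus AC was 0.31 for *Gad1*, 0.10 for *Gad2*, 1.81 for *Slc32a1*, 1.73 for *Slc6a11*, 2.60 for *Abat* and 1.25 for *Aldh5a1*. By the limit 4 of 6 were higher and 0 lower, where 41.4% of all genes were higher and 27.1% lower. Each of the 4 fell below the limit in some setting. With medians over cells *Abat* was 0.54 and *Slc6a11* and *Aldh5a1* were 0, and *Slc32a1* turned to -0.93 without the cells high in glial and microglial markers. These comparisons share their cells with that of AC and CA3, and the CA1 values rest on 3 cells. Without 1 cell, CA1 minus CA3 moved from -1.86 (N6 left out) to 1.77 (N2X) for *Slc32a1*, from -2.51 (N6) to 0.91 (N1) for *Slc6a11* and from -0.79 (N26) to 0.79 (N1) for *Abat*, so that none of these 3 has a direction. For *Aldh5a1* it moved from -3.62 (N6) to -0.97 (N1). That difference was -0.51 without the cells high in glial and microglial markers and -0.94 with all labelled cells, both short of the limit. CA1 minus AC of *Slc32a1* was 0.45 without N6 and 4.08 without N2X, that of *Gad1* -0.06 without N7, and that of *Gad2* -0.02 without N3X. Without N6, CA1 minus AC turned to -0.56 for *Slc6a11* and -0.51 for *Aldh5a1*, since N6 was the 1 CA1 cell with reads on either.

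**Figure D5:**
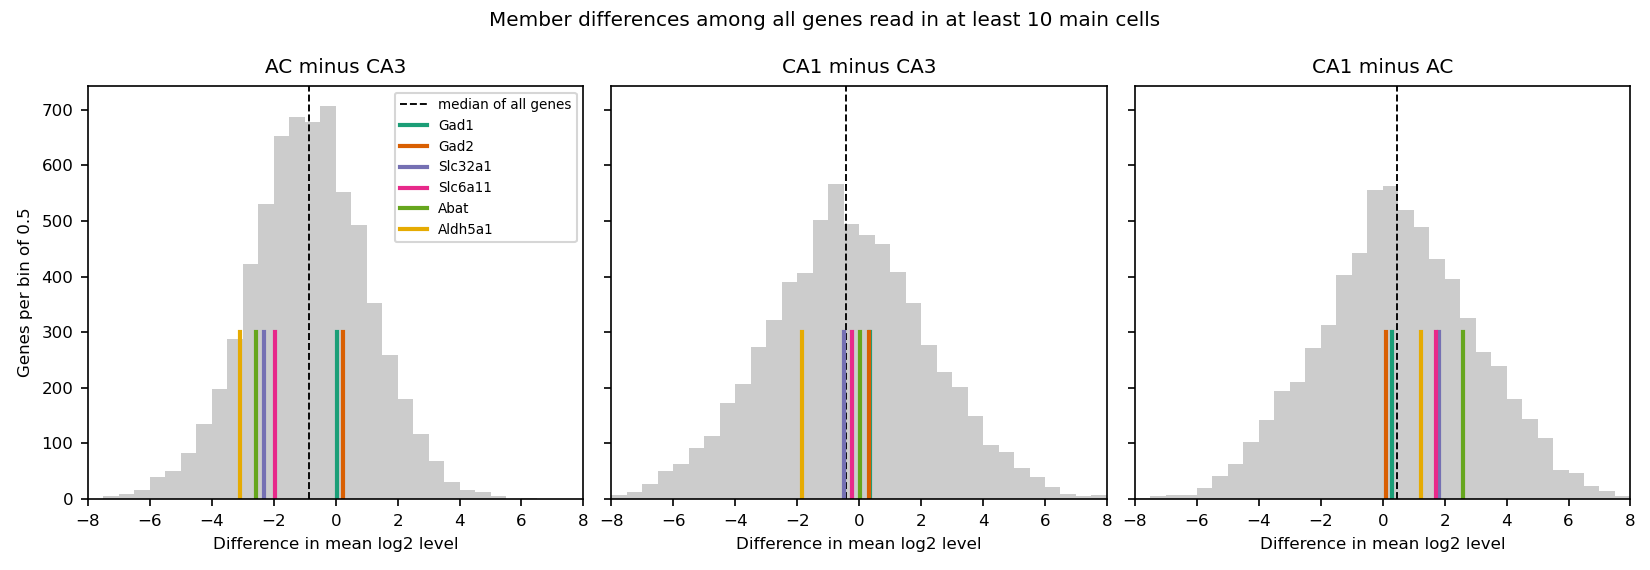
Grey bars count the 6597 genes read in 10 or more main cells by their difference in mean log2 level (bins of 0.5) in each of 3 comparisons, coloured lines mark the 6 genes (their height has no meaning) and the dashed line the median of all genes. In AC minus CA3, *Gad1* and *Gad2* lie to the right of the median at -0.87 and the other 4 genes to its left, all within the bulk of the bars.

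Of 30 further genes of GABA and glutamate metabolism and transport, 29 were in the table and 19 passed the filter. Between AC and CA3, 5 were higher in AC, 8 lower and 6 differed by less than 1 (15.9% higher and 47.3% lower over all genes), with a median of -0.64, not far from that of all genes. *Sucla2*, a subunit of succinyl-CoA synthetase in the citric acid cycle, differed by -4.32, with reads in 7 AC and 13 CA3 cells. In the other direction *Slc1a1*, a neuronal glutamate transporter, differed by 2.89 and *Slc25a22*, a mitochondrial glutamate carrier, by 2.50. *Got1*, the cytosolic aspartate aminotransferase, took 496 CPM summed over the AC and 979 over the CA3 cells and had reads in 9 of 10 AC and 13 of 13 CA3 cells. The list had 5 genes with no read in any main cell, named here after their values were seen: *Slc6a12* and *Slc6a13*, which encode other GABA transporters, *Maob*, *Slc38a3* and *Slc17a8*. CA1 minus CA3 was at least 1 higher for 8 and lower for 5 of the 19, and CA1 minus AC higher for 7 and lower for 5. Over all genes tested the shares were 29.6% higher and 40.2% lower in the first comparison and 41.4% and 27.1% in the second.

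Among genes of interneuron identity, which include factors of the Dlx family known to act upstream of the decarboxylase genes, 8 of 9 were in the table and all 8 passed the filter. *Dlx2* was higher in AC by 2.61, and *Lhx6* and *Dlx5* differed by -8.11 and -3.34. By the limit of 1, 1 of the 8 was higher in AC, 3 were lower and 4 differed by less (15.9% higher and 47.3% lower over all genes). *Lhx6* had reads in 12 of the 13 CA3 cells and in 0 of the 10 of AC, and it passed the filter through CA3 alone. *Dlx5* was read in 10 main cells, just enough to pass, and 8 of them were of CA3.

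The libraries outside the main set widened the range of several genes. N36 of CA3, with 1753 genes with a read, had the most *Gad1* of all libraries at 16384 CPM, and 7.25 *Gad1* reads per *Gad2* read. N47 of AC had 0.501 *Gad1* reads per *Gad2* read, with 5703 against 11394, and like N7 it was high in *Abat* (1125 CPM) and had reads on *Slc32a1* (32.1 CPM). N45 of AC had a ratio of 1.30. N51 of AC had 2040 reads on *Gad1* and 1 on *Gad2*, and the most *Abat* of all libraries, 2202 CPM. It also had 4733 CPM on the pyramidal cell list, more than any main cell. N51 had 1565 and N47 1719 genes with a read, and like N36 both had fewer than any main cell. The 2 DG libraries and the NPY-negative cell had no read on any of the 6 genes, but all 3 were among the libraries over 10000 CPM on a glial list and had no *Npy* read. The DG libraries, of 89297 and 190573 reads, had 38165 and 41790 CPM on the astrocyte list. N11 of these also had 39072 CPM on the oligodendrocyte list and 6473 on the pan-neuronal list, and N12 had 572 and 0.

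In the 10 libraries high in glial markers, with 89297 to 408585 reads each, *Gad1*, *Gad2* and *Slc32a1* had no read. *Slc6a11*, *Abat* and *Aldh5a1* were each read in 2 of the 10. The limit that 3 reads set was 7.34 (N23) to 33.6 CPM (N11), beside a CA3 median of 12.9 CPM for *Slc32a1*. Its absence here therefore says little. *Slc6a11* had 47 reads in N13, whose 217 CPM (exact Poisson interval 159 to 288) was the highest of all libraries, and 1 read in N22. Both were among the 6 libraries with 35126 to 42044 CPM on the astrocyte list. *Abat* had 65 reads in N22, or 212 CPM, and 44 in N15, or 192 CPM, and *Aldh5a1* had 9 reads in N23 and 2 in N15. N15 and N23 were among the 5 libraries with 27004 to 186519 CPM on the oligodendrocyte list.

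By Spearman correlation of levels over the 26 main cells, the genes most like each member among those read in at least 13 cells were, after *Gad1-ps*, *Gm5422* (0.71) and *Emc10* (0.70) for *Gad1*, and *Nagk* (0.66), *Maged1* (0.62) and *Hsp90ab1* (0.61) for *Gad2*. For *Slc32a1* they were *Slc30a9* (0.70), *Cadm2* (0.69) and *Vcan* (0.66), and for *Slc6a11* *Ndufs4* (0.66), *Cited2* (0.62) and *Plekho1* (0.61). For *Abat* they were *Tmx2* (0.63), *Rph3a* (0.62) and *Lrrc73* (0.61), and for *Aldh5a1* *Rars* (0.82), *Mrps14* (0.72) and *Itm2b* (0.71). These are the largest of 4987 or 4988 values for each gene over cells that share their size factor, and many of the genes have cells at 0. Among the 6 genes themselves, *Gad2* and *Slc32a1* had a correlation of -0.55 over the 26 cells, -0.76 over the AC and -0.41 over the CA3 cells.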

How the data were processed

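Cytosol of single cells was drawn through the patch pipette, cDNA was made from polyA RNA and libraries with Nextera XT. Raw read counts of 47 cells were deposited as 1 table that had not been normalized. The submitters' processing notes name Trimmomatic, STAR, featureCounts and GRCm38, whereas the paper names HTSeq as the counter. According to the paper, identifiers that shared a symbol had their counts averaged. All 47 columns matched a sample by title and 0 did not.

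Of 22800 symbols, 7613 had no read. Counts were divided by size factors of the scran package, version 1.30.0 (R 4.3.3, computeSumFactors, pools of 10 and 20), and a level is log2(normalized count + 1). The filter was a read in at least 10 of 26 main cells. Depth was 1715012 to 6265431 reads in AC, 2229519 to 7949918 in CA3 and 601781 to 3202430 in CA1 main cells, and 40934 at the lowest over all libraries. The labels name no mouse, so each region is 1 sample. No test between regions, p-value or standard error was computed, and Dixon's limit was used for single AC cells far from the rest. Intervals are exact at 95% (Poisson for summed reads, Clopper-Pearson for shares). The limit for a count of 0 is 3 reads.

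Marker sums are the CPM summed over fixed lists for astrocytes, oligodendrocytes, microglia, pyramidal cells, endothelial and mural cells and neurons in general. Endothelial and mural markers took at most 81.5 CPM in a main cell, pyramidal cell markers at most 648, and the pan-neuronal list 3653 to 12197. Genes to name were the 6 members, the 3 genes most like each, at most 5 of the pathway list by the difference between AC and CA3, and the interneuron identity list. *Slc1a3* of that pathway list differed more but did not pass the filter. Some genes of these lists are not reported here by name. Members and lists were chosen with earlier results of these data known.

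Coordinates and exon lengths are from GENCODE vM21 on GRCm38, and the printed sequences were read from that genome. Alternatives were TMM factors of edgeR 4.0.16, poscounts factors of DESeq2 1.42.0, library size, other scran factors, a pseudocount of 10, no filter, medians, summed CPM, all labelled cells, 1 cell left out at a time, a detection limit of 10 reads and thinning to 601000 reads (seed 1). Added after the data were seen were *Gad1-ps* reads, lengths of single transcripts and the set without cells of 1000 CPM or more on glial and microglial lists. Steps were tested on simulated data. The rest was done in Python 3.11.15 (pandas 2.3.3, numpy 2.4.6, scipy 1.17.1, matplotlib 3.10.9).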

Additional observations from a re-analysis of the deposited data

Results flagged for a closer look

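In 4 cases the lowest or highest of the 10 main AC cells lay apart from the others by more than Dixon's 95% critical value of 0.466 allows. Chance flags about 1 in 20 groups, and groups in which most cells are at 0 are flagged by any 1 cell with reads. The *Gad1* level of N7 was 11.05, below every other AC cell, and its log2 ratio of *Gad1* to *Gad2* was -0.92, the lowest of the main set. N7 had 2253229 reads, 5308 genes with a read and 131 CPM on the astrocyte list, none of them at the end of the range of the AC cells. Its sum over the pan-neuronal list, 3653 CPM, was the lowest of the AC cells and its microglia list was at 0; the part of either in its *Gad1* level was not tested. The *Slc6a11* level of N3X was 5.58 and the *Aldh5a1* level of N8 was 5.12, each the 1 AC cell with a read.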

How the results depend on the processing

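No paired analysis was possible because the labels give cells no shared replicate number, mouse or day. Of 180 recomputed differences in level, 174 moved by less than 1 SD over cells with no difference of 1 or more turning its sign, as did 18 of 18 of the log2 ratio. This is a loose measure. The setting without the filter is among the 180 but cannot change the level of a gene. The SD over cells reached 5.002 for *Abat* in AC, so its move from -2.58 to -0.75 with medians counts among the 174. The sign itself turned in 23 of the 180 and in 8 of the 18, and all but 2 of these (both of *Slc32a1*) started from a difference under 1. With all labelled cells, CA1 minus CA3 was 4.97 for *Gad1* and 4.35 for *Gad2*, and CA1 minus AC 4.92 and 4.55, since AC and CA3 then include libraries without a read on either gene. In the added set without cells high in glial and microglial markers, *Slc32a1* turned to 0.19 in AC minus CA3 and -0.93 in CA1 minus AC. The AC cells left out there all had no read on *Slc32a1*, and the cause was not tested. With 1 cell left out, CA1 minus AC ranged from -0.56 to 2.87 for *Slc6a11* and from -0.51 to 2.13 for *Aldh5a1*, both below 0 without N6. Leaving N7 out turned AC minus CA3 of the log2 ratio from -0.17 to 0.12. The sign of the *Gad1* difference between AC and CA3 turned in 4 of 10 settings, between -0.41 and 0.29, and that of *Gad2* in 2, between -0.27 and 0.22. That of *Abat*, *Slc6a11* and *Aldh5a1* did not turn in any of these 10. With medians over cells both groups were at 0 for *Slc6a11*. Without the filter 13842 genes entered, of which 13.4% were higher and 32.3% lower in AC than in CA3, and the median difference was -0.33. Among settings that keep the filter, the median of all genes in AC minus CA3 moved by over 0.1 with a pseudocount of 10 (-0.48), summed CPM (-0.08) and all labelled cells (-1.19), and in CA1 minus CA3 and CA1 minus AC it moved to 0.49 and 1.79 with all labelled cells, -0.62 and 0.29 with poscounts factors, -0.04 and 0 with medians over cells, -0.24 and 0.24 with a pseudocount of 10 and, in CA1 minus AC, -0.20 with summed CPM. In single libraries of this depth, 0 reads bound a level below 0.377 to 4.99 CPM in the main cells, and with no replicate of a region the differences have no replicate check.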
